A study of Rattus norvegicus with 9 samples.

Results

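Heat shock proteins and their co-chaperones were described in the cerebral cortex of 9 untreated young adult rats. The genes were taken by symbol: every probe whose platform symbol named a member of the Hsp families, a J protein of class A, B or C (Dnaja, Dnajb, Dnajc), a BAG protein (Bag1 to Bag6), Chordc1, Stip1 or St13. This gave 64 genes of the 10412 named on the array, each with 1 probe, and all 64 were among the 18531 probes tested. No measured value entered the choice. The animals were 6 male and 3 female Sprague-Dawley rats aged 60 days, 1 Illumina bead array each, and all served as non-irradiated controls in a study of cortical dysplasia; the irradiated arm was not analysed here. The labels name no transgene or agent for any of them, and all had free access to food and water. Whole cortex was used, so fewer cells of a type and less RNA per cell cannot be told apart. The titles carry 1 of 3 numbers, each shared by 1 female and 2 males; their meaning is unstated, and they are called here the lowest, middle and highest title number.

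Chaperones bind unfolded stretches of other proteins and help them fold, cross membranes or be degraded. Hsp70 proteins do this in a cycle of ATP use that J proteins start and nucleotide exchange factors end, Hsp90 proteins act later on a narrower set of clients, and small heat shock proteins hold unfolded protein without using ATP. Cells switch on the cytosolic set through heat shock factor 1, which binds repeats of the heat shock element, and the set of the endoplasmic reticulum through the unfolded protein response and its own promoter element. In neurons, chaperones also serve synapses: J proteins act in the release of synaptic vesicles and in stripping clathrin from them.

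Promoters of members that the results turn on are shown first, because the heat shock element and the endoplasmic reticulum stress element fell in different members. RefSeq promoter windows of assembly GRCr8, 250 bases before to 50 after each gene's start, were matched for 53 of the 64 genes. The heat shock element was searched as GAANNTTC or TTCNNGAA, each of which reads the same on both strands, and stood in 17 of the 53 windows (32.1%), against 15.4% of all 27457 rat promoter windows. The extended element, GAANNTTC followed at once by NNGAA, searched on both strands and made of overlapping copies of the short one, stood in 4 of 53, against 0.736% of all windows. These 4 were Chordc1, Dnaja1, Hspd1 and Hspe1. A match describes the letters only and shows no binding. Elements are in capitals, every sequence runs 5′ to 3′ on the gene's strand, and positions count from the gene's start. The 4 stretches below belong to the 3 genes with the smallest p between the sexes and to the mitochondrial chaperonin pair: Chordc1 at chr8:23650831-23650853 (plus strand, positions 11 to 33), Dnajb1 at chr19:41431142-41431201 (minus strand, -60 to -1), Bag3 at chr1:192533300-192533360 (plus strand, -160 to -100) and Hspe1 at chr9:64084077-64084326 (plus strand, -250 to -1).
Chordc1: GAACGTTCGGGAAGATTCCTGAA
Dnajb1: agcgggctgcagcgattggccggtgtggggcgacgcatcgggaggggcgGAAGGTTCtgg
Bag3: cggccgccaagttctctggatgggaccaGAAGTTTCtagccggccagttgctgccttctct
Hspe1: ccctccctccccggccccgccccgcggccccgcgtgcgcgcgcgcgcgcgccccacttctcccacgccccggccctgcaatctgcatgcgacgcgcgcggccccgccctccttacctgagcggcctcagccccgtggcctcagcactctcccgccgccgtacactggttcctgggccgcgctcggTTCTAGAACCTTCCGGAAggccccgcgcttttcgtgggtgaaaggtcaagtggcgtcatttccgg
Chordc1 holds 4 overlapping short elements in the 23 bases printed. Hspd1 lies beside Hspe1 and is read the other way. Between their starts are 289 bases, their 300-base windows share 211 bases, and the run of 3 overlapping elements in capitals is the same run in both.

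The endoplasmic reticulum stress element, CCAAT and CCACG with 9 bases of any kind between them on either strand, was rarer. It stood in 3 of the 53 windows, those of Hspa5, Hsp90b1 and Dnajc3, and in 21 of all 27457 windows (0.0765%). Hspa5 (also called BiP) is the Hsp70 of the endoplasmic reticulum, Hsp90b1 (Grp94) is its Hsp90, and Dnajc3 is a J protein and kinase inhibitor of the unfolded protein response.
The Hspa5 stretch lies at chr3:38452916-38453015 (plus strand, positions -100 to -1) and that of Hsp90b1 at chr7:23012334-23012493 (minus strand, -200 to -41).
Hspa5: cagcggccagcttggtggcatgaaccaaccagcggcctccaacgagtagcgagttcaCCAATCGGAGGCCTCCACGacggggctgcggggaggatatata
Hsp90b1: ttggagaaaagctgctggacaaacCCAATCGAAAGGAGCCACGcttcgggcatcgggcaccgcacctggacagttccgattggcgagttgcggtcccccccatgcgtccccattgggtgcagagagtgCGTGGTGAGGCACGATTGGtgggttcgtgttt
The second run in the Hsp90b1 line is the element on the opposite strand. CCAAT alone, which the stress element contains, stood in 21 of the 53 windows against 37.7% of all windows, and TATAAA in 4 of the 53 against 14.3%, both counted on either strand.

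Levels are log2 intensities after background correction and quantile normalization, and levels of different probes are not compared. Mean array intensity was 183.6 to 185.4 on the 3 dimmest arrays (male 2, male 4 and female 2) and at least 212.2 on the other 6, and pairwise correlations between arrays were 0.981 to 0.994. Of the 64 genes, 58 were above the 25th percentile of their array (the detection level used) on every array. All 6 neuronal markers were detected on all arrays. Male 5 stood apart in oligodendrocyte markers: its mean deviation from the median animal was -1.03 over 6 of the 7 listed genes, against -0.21 to 0.23 in the other 8 animals. Males 3 and 2 stood apart in choroid plexus markers (1.95 and 0.91 over 5 of 6 listed genes, against -0.16 to 0.19 elsewhere). The Dnajc4 probe had the same value as a Vegfb probe on every array, so its identity is uncertain, and the Bag3 probe had the same value as an unnamed probe.

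The inducible cytosolic chaperones are the first line of the heat shock response, and 11 of the 16 listed were measured. No named probe carried the symbols Hspa8, Hsph1, Hsp90ab1, Hspa1a or Hspa1l, and these genes were not analysed here. Of the 11, 9 averaged lower in males, with a median log2 difference (male minus female) of -0.15, while the median over all tested probes was -0.00035. None passed the adjusted test, as described next.

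**Figure D1:**
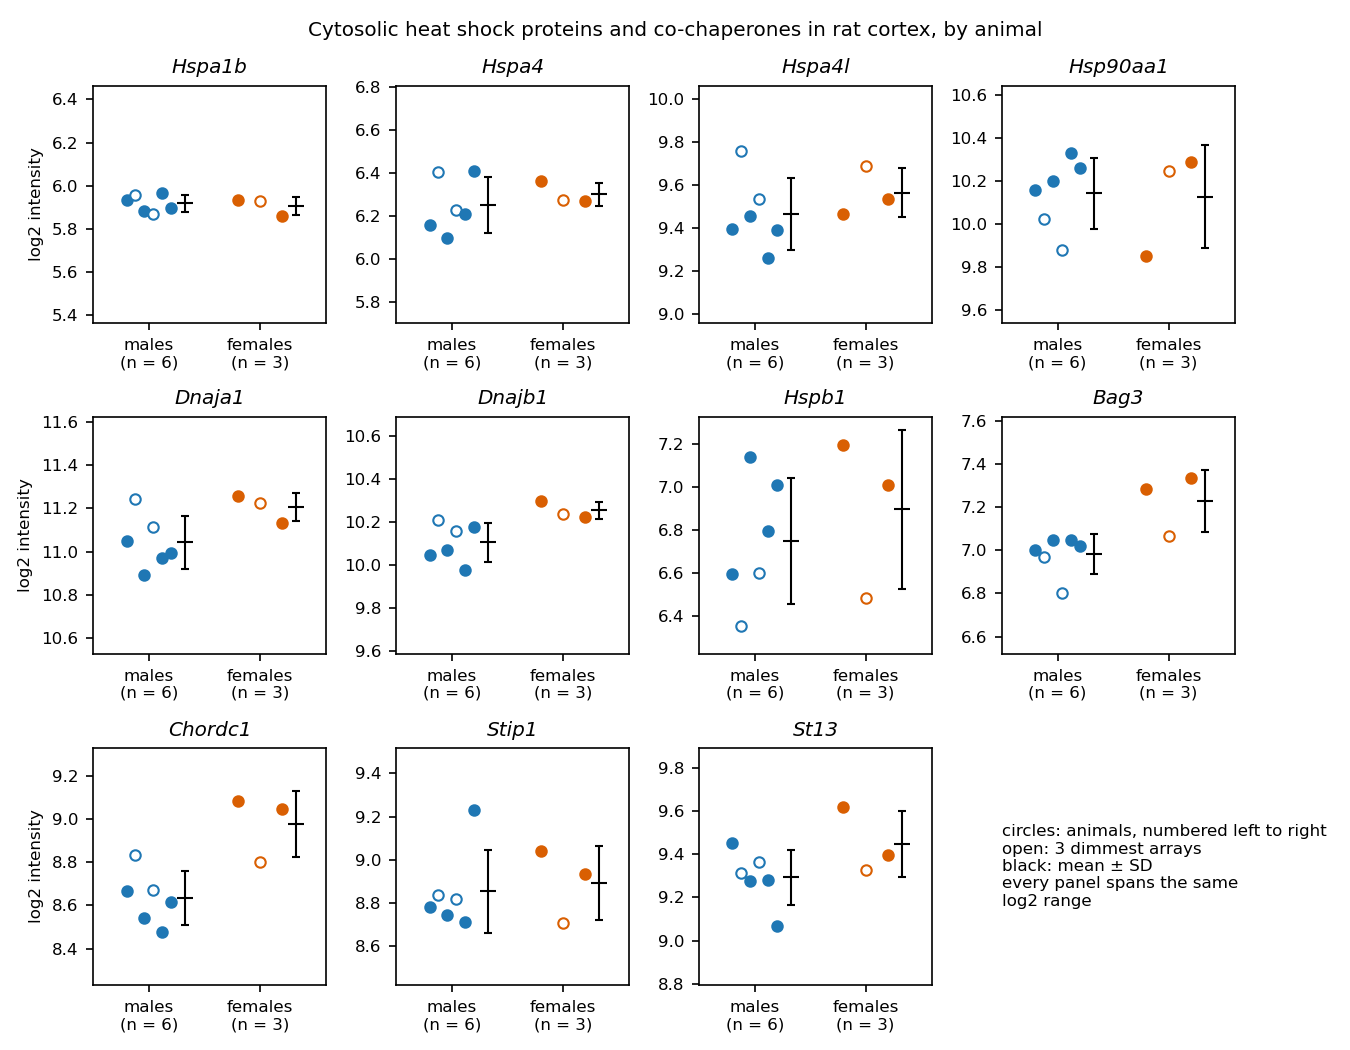
Log2 intensity (vertical axis) of the 11 measured inducible cytosolic genes, 1 circle per animal, males (blue, n = 6) left of females (orange, n = 3), with the mean ± SD in black and open circles for the 3 dimmest arrays. Every panel spans the same log2 range; Bag3 and Dnajb1 are the panels in which no male reaches the lowest female.

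Chordc1, a zinc-binding co-chaperone of Hsp90, had a lowest, median and highest male value of 8.48, 8.64 and 8.84, against 9.09, 8.80 and 9.05 in the 3 females. One male, male 2, lay above the lowest female, female 2, and both were on dim arrays. The difference was -0.34 ± 0.09 (SE), with an unadjusted p of 0.0024 and an adjusted p of 0.9999 in limma. It was -0.33, -0.20 and -0.50 within the lowest, middle and highest title number, each from 2 males and 1 female.

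Bag3 guides misfolded clients of Hsp70 to autophagy. Its males lay at 6.80, 7.01 and 7.05 (lowest, median, highest), against 7.28, 7.07 and 7.34 in females. The sexes did not overlap, with female 2 just above the highest male. The difference was -0.25 ± 0.07 (unadjusted p = 0.0070, adjusted p = 0.9999, limma), and -0.30, -0.14 and -0.30 within the 3 title numbers. Dnajb1, the J protein that works with cytosolic Hsp70 and is itself a classical heat shock gene, lay at 9.97, 10.11 and 10.21 in males and 10.30, 10.24 and 10.22 in females. Again the sexes did not overlap; the difference was -0.15 ± 0.06 (unadjusted p = 0.028, adjusted p = 0.9999, limma), and -0.17, -0.12 and -0.15 within title numbers. The female spread was small for Dnajb1 (SD 0.04, n = 3) and larger for Bag3 (SD 0.14) and Chordc1 (SD 0.15).

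The remaining inducible genes overlapped between the sexes. Dnaja1, a farnesylated J protein of the cytosol, had male values of 10.89, 11.02 and 11.24 (lowest, median, highest), against 11.26, 11.23 and 11.13 in females (difference -0.16 ± 0.07, unadjusted p = 0.051, adjusted p = 0.9999, limma). St13 (Hip), which steadies the client-bound form of Hsp70, lay at 9.07, 9.30 and 9.45 in males and 9.62, 9.33 and 9.40 in females. Its difference of -0.15 ± 0.09 (unadjusted p = 0.10, limma) was -0.0073 within the middle title number and -0.07 without female 1. Stip1 (Hop), the adaptor between Hsp70 and Hsp90, lay at 8.71, 8.80 and 9.23 in males and 9.04, 8.70 and 8.94 in females. Male 6 alone made the high end of Stip1; the other 5 males lay at 8.71 to 8.83.

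Hsp90aa1, the inducible cytosolic Hsp90, lay at 9.88, 10.18 and 10.33 in males and 9.85, 10.24 and 10.29 in females, and did not follow the pattern of its co-chaperones. Female 1, highest of all animals for Chordc1, was lowest for Hsp90aa1. Hspa4 and Hspa4l, nucleotide exchange factors of the Hsp110 family, had male medians of 6.22 and 9.43, with females at 6.36, 6.27 and 6.27 for Hspa4 and at 9.47, 9.69 and 9.54 for Hspa4l. The males reached 6.10 to 6.41 for Hspa4 and 9.26 to 9.76 for Hspa4l, so the sexes overlapped for both. The Hspa4 probe was dim, with raw intensities of 49.5 to 67.5, so its overlap says little. Hspb1 (Hsp27), a small heat shock protein that also steadies actin, varied most of the 11: males lay at 6.35, 6.70 and 7.14, and females at 7.19, 6.48 and 7.01. Hspa1b, an inducible Hsp70, was near background, with raw intensities of 37.7 to 45.5, detection on 5 of 9 arrays, males at 5.87, 5.91 and 5.97 and females at 5.93, 5.93 and 5.86.

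Across all 64 genes, 3 were under an unadjusted p of 0.05 between the sexes (limma), namely Chordc1, Bag3 and Dnajb1. All 3 were lower in males, against 1.18% of all tested probes lower in males at that level, 1.19% higher and 2.37% in either direction. None of the 64 passed the adjusted test, and neither did any of the 18531 probes (0% called in limma, with 439 under an unadjusted p of 0.05). Bag3 and Dnajb1 were also the 2 genes whose sexes did not overlap, both lower in males, against 1.5% of all probes without overlap and 0.831% lower in males. The count of 3 became 5 without female 2, 5 without male 4 and 2 without female 1. Over all probes the 439 became 720 without female 2 and 288 without female 1, with every other single omission between these. In all, 48 of 64 genes averaged lower in males (75%), against 50.3% of all tested probes, and their median difference was -0.04. Without female 1 the count was 40 of 64 (62.5%, against 50.3% of all probes) and the median -0.02, and with no normalization between arrays 34 of 64 (53.1%, against 35.3%) and -0.01. Over the same animals, neuronal marker deviations were -0.17 to 0.07 in males and 0.06 to 0.17 in females (6 of 6 listed genes measured), and those of immediate early genes were -0.30 to 0.13 in males and -0.0032 to 0.38 in females (9 of 9). Arc, Fos and Egr1 differed by -0.72, -0.34 and -0.30 (male minus female; unadjusted p = 0.033, 0.043 and 0.045, adjusted p = 0.9999 each, limma). The other immediate early genes also averaged lower in males, none under an unadjusted p of 0.05 (limma). Microglial markers separated the sexes the other way by a narrow gap, at -0.029 (male 6) to 0.17 in males and -0.11 to -0.035 (female 1) in females (5 of 6 listed genes measured). Of these, Aif1 was higher in males by 0.33 (unadjusted p = 0.0081, adjusted p = 0.9999, limma) and C1qa by 0.21 (unadjusted p = 0.021, adjusted p = 0.9999, limma). The rest differed less, C1qb by 0.15, Tyrobp by 0.015 and Cx3cr1 in the other direction by -0.037, none under an unadjusted p of 0.05 (limma). No measured marker on these 3 lists was below detection on any array, and the part of these differences in the chaperone values was not tested.

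**Figure D2:**
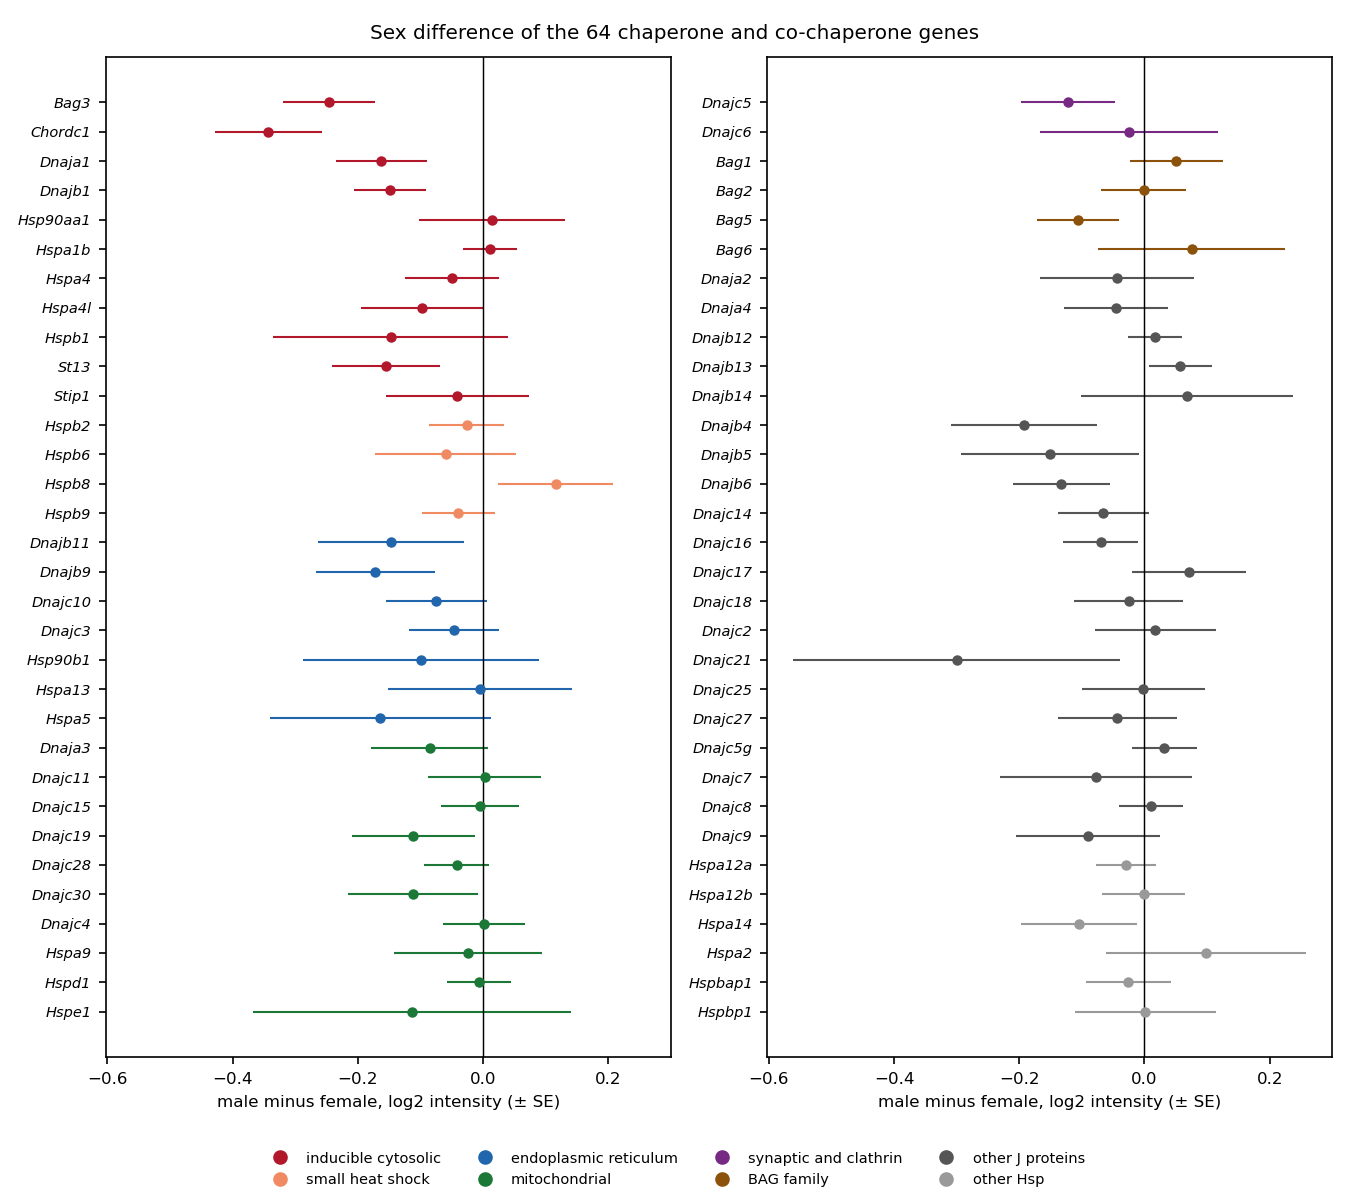
Male minus female difference in log2 intensity (horizontal axis) for each of the 64 genes, as a point with its SE, coloured by subgroup. The inducible cytosolic genes run from -0.34 for Chordc1 to 0.01 for Hsp90aa1. The 7 genes listed as endoplasmic reticulum all lie below 0, as did 50.3% of all tested probes, with standard errors that mostly cross it. Dnajb14 and Dnajc14, also of that compartment, are drawn with the other J proteins, at 0.07 and -0.07.

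The Hsp70 of the endoplasmic reticulum and its J protein varied in parallel between animals. Hspa5 ranged over 0.86 log2 units: it was 10.99, 11.16 and 11.62 in males (lowest, median, highest) and 11.78, 10.92 and 11.40 in females. Dnajb11 (ERdj3), the J protein that delivers unfolded clients to Hspa5, was 7.88, 8.003 and 8.27 in males and 8.45, 7.88 and 8.19 in females. In both genes female 1 was highest, followed by male 6 and then female 3, and the sexes overlapped throughout. Pearson's r between them over the 9 animals was 0.95 (exact permutation p = 0.00023, two-sided, adjusted p = 0.0029 over the 13 partner pairs computed), and Spearman's rho was 0.88 (exact permutation p = 0.0031, adjusted p = 0.020).

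Without female 1 and male 6, the 2 animals farthest from the median of Hspa5, r was 0.82 (exact permutation p = 0.024, n = 7), and over the 6 brighter arrays it was 0.99 (exact permutation p = 0.0014). This pair passed the adjusted test in all 19 alternative settings; Pearson's r was 0.91 (without female 1) to 0.99 in the 18 that used it. Both genes had lower male means, and the differences of -0.16 ± 0.18 for Hspa5 and -0.15 ± 0.12 for Dnajb11 (SE) were within the spread between animals.

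Hsp90b1 followed Hspa5 less closely and was low on the 3 dimmest arrays. It lay at 10.27, 10.64 and 11.03 in males and 10.99, 10.26 and 10.91 in females, and r with Hspa5 was 0.76 (exact permutation p = 0.017, adjusted p = 0.058 over 13 pairs; rho 0.75, exact permutation p = 0.025). Without female 1 and male 6 this r was 0.52, so it rested largely on those animals, and over the 6 brighter arrays it was 0.83. Dnajc3 lay at 7.85, 8.04 and 8.11 in males and 8.15, 7.91 and 8.13 in females. Its r with Hspa5 was 0.76 (exact permutation p = 0.018, adjusted p = 0.058) and its rho was 0.87 (exact permutation p = 0.0045, adjusted p = 0.020). It held r of 0.68 without the same 2 animals and 0.69 over the 6 brighter arrays. Both r values passed the adjusted test under some other settings, among them scaling to the 75th percentile, at 0.82 for Hsp90b1 and 0.84 for Dnajc3.

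Dnajb9 (ERdj4), a J protein that holds the stress sensor Ire1 inactive together with Hspa5, did not track it. It was 7.77, 7.94 and 8.26 in males and 8.18, 8.08 and 8.18 in females, and r with Hspa5 was 0.23 (exact permutation p = 0.55, adjusted p = 0.59). Its sex difference was -0.17 ± 0.09 (SE; unadjusted p = 0.10, adjusted p = 0.9999, limma) and -0.016 within the lowest title number. The windows of Hspa5, Hsp90b1 and Dnajc3 hold the stress element described above. No match was found in those of the other matched genes, among them Dnajb9 and also Dnajb11, which had r of 0.95 with Hspa5. The Hspa13 probe, for an Hsp70-like ATPase of microsomes, ran opposite to Hsp90b1, at 8.58 to 8.65 on the 3 dimmest arrays and 8.07 to 8.34 on the other 6.

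Of 50 other folding and stress genes listed beside the members, 40 were measured, and several, in the endoplasmic reticulum and outside it, followed Hspa5. Pdia4, a protein disulfide isomerase, lay at 7.34, 7.42 and 7.80 in males and 8.06, 7.28 and 7.69 in females, with r of 0.97 with Hspa5 over 9 animals, the highest of all named genes outside the 64. Hyou1, the large Hsp70 of the endoplasmic reticulum, had r of 0.94, Xbp1, the transcription factor of the unfolded protein response, 0.88, Ddit3 (Chop), its pro-apoptotic factor, 0.87, and Calr, a calcium-binding lectin chaperone, 0.87. Genes outside the endoplasmic reticulum followed Hspa5 too: Nudc (0.93), Grpel1 (0.79), Cdc37 (0.74) and Cct7 (0.72) on this list, and Tpm3 (0.95) beyond it. So did the members Stip1 (0.88) and Dnajc7 (0.79). Other endoplasmic reticulum genes did not. Atf6, a sensor of the unfolded protein response, had r of 0.33, Canx, the membrane-bound relative of Calr, 0.19, and Pdia6 0.08. Serpinh1, the collagen chaperone, had -0.20, and Sil1, the nucleotide exchange factor of Hspa5, -0.23. The Atf6 and Hyou1 probes lay near background, at 5.93 to 6.15 and 5.98 to 6.22, so the low r of Atf6 says little about that gene. Among members, Dnajc10 (ERdj5), a reductase and J protein of the same compartment, had r of -0.36. These are descriptions over 9 shared arrays, picked in part after their values were seen, and were not tested. None of the 40 genes was under an unadjusted p of 0.05 between the sexes (limma), against 2.37% of all tested probes, and 26 of them (65%) averaged lower in males, against 50.3%. Across title numbers 6 of the 40 were under that p, against 9.56% of all probes, and 7 stood apart on the 3 dimmest arrays, against 14.1% (4 below and 3 above the other 6).

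**Figure D3:**
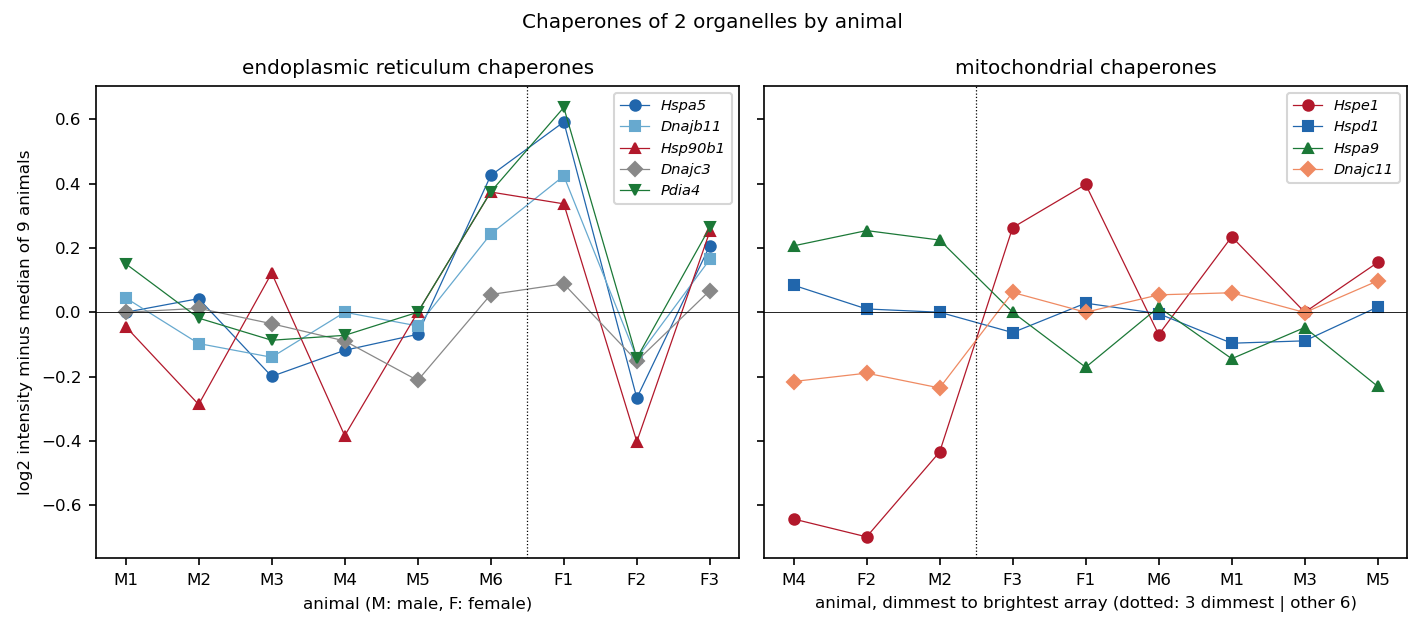
Log2 intensity of each gene minus its median over the 9 animals, for endoplasmic reticulum genes by animal (left, males before females) and mitochondrial genes with arrays in order of brightness (right, the 3 dimmest before the other 6). Hspa5, Dnajb11 and Pdia4 peak together in female 1 and male 6, while Hspe1 and Dnajc11 lie below 0, and Hspa9 above 0, on the 3 dimmest arrays.

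The mitochondrial chaperonin is a barrel of Hspd1 (Hsp60) closed by a lid of Hspe1 (Hsp10), and their promoter windows overlap, as given above. Their probes nevertheless behaved differently. Hspd1 hardly varied, at 11.04, 11.14 and 11.22 in males and 11.17, 11.15 and 11.08 in females, with an SD within sex of 0.06. Hspe1 varied more than all but 1 member, with an SD of 0.43: it lay at 7.999, 8.61 and 8.88 in males and 9.04, 7.94 and 8.91 in females. On the 3 dimmest arrays Hspe1 was 7.94 to 8.21, and on the other 6 it was 8.57 to 9.04, a gap of -0.76 between the means. The r of Hspd1 with Hspe1 was -0.50 (exact permutation p = 0.18, adjusted p = 0.29) and rho was -0.25 (exact permutation p = 0.52). Its sign depended on the scaling: r was 0.86 with no normalization between arrays (adjusted p = 0.016 by exact permutation), 0.58 with scaling to the 75th percentile, and 0.19 over the 6 brighter arrays. Without male 1 and male 3, the animals farthest from the Hspd1 median, it was -0.45.

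Hspa9 (mortalin), the Hsp70 that pulls proteins into mitochondria, was 10.19, 10.40 and 10.64 in males and 10.25, 10.67 and 10.42 in females. It was highest on the 3 dimmest arrays, at 10.62 to 10.67 against 10.19 to 10.43 on the other 6. Its r with Hspd1 was 0.36 (exact permutation p = 0.34, adjusted p = 0.44) and was below 0 with no normalization, with 75th percentile scaling and over the 6 brighter arrays. Dnaja3 (Tid1), the J protein of Hspa9 in the matrix, was 6.91, 7.20 and 7.39 in males and 7.37, 7.17 and 7.22 in females, and its r with Hspa9 was -0.63 (exact permutation p = 0.061, adjusted p = 0.13), or -0.67 over the 6 brighter arrays.

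Members beyond the mitochondrial ones also differed between the 3 dimmest arrays and the rest. Across the 64 genes, 9 had all 3 dimmest arrays below all of the other 6, against 7.01% of all tested probes, and 8 had all 3 above, against 7.09%. Together that is 17 of 64, where 14.1% of all probes were apart in either direction. The 9 lower ones were Hspe1, Hsp90b1, the mitochondrial proteins Dnajc11 (7.33 to 7.37 on the dimmest, 7.56 to 7.66 on the others), Dnajc19 (of the import motor) and Dnajc28, and Dnajc7, Dnajc17, Hspa12b and Hspbp1. Dnajc7, which passes clients between Hsp70 and Hsp90, had a gap of -0.39 between the means, and Hspbp1, a nucleotide exchange factor of Hsp70, one of -0.28. The 8 higher ones were Hspa9, Hspa13, Dnaja2, Dnajb14, Dnajc18, Dnajc27 and the ribosome-bound partners Hspa14 and Dnajc2. Dnaja2, a cytosolic relative of Dnaja1, lay at 11.29 to 11.41 on the dimmest arrays and 10.83 to 11.06 on the others. None of the 11 inducible cytosolic genes separated the arrays this way, but Hspb1 and Hspa4l missed it narrowly. Hspb1 reached 6.601 on the dimmest arrays, where the lowest of the other 6 was 6.597, with a gap of -0.48 between the means. Hspa4l was at least 9.534 on the dimmest arrays and at most 9.537 on the others, with a gap of 0.24. How far brightness accounts for the other values was not tested.

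Among 13 partner pairs whose genes were both measured, 2 passed an adjusted p of 0.05 by Pearson's r: Hspa5 with Dnajb11, and Dnajb1 with Chordc1. By Spearman's rho, Hspa5 with Dnajc3 passed as well. Dnajb1 with Chordc1 had r of 0.85 (exact permutation p = 0.0037, adjusted p = 0.024) and rho of 0.87 (exact permutation p = 0.0045, adjusted p = 0.020), and r of 0.87 without males 1 and 5. It missed the adjusted threshold once the sex means were removed (r = 0.67, adjusted p = 0.091), without female 1 (0.79, adjusted p = 0.090), without male 5 (0.81, adjusted p = 0.056), on residuals from sex and title number means (0.73, adjusted p = 0.088) and over the 6 brighter arrays (0.88, adjusted p = 0.099), each by exact permutation. Within the inducible set, Dnaja1 also had r of 0.80 with Dnajb1 and 0.80 with Chordc1, as descriptions over the same 9 animals.

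Bag3 and the small heat shock protein Hspb8, which form a complex that directs clients to autophagy, ran in opposite directions. Hspb8 lay at 7.47, 7.74 and 7.93 in males and 7.64, 7.68 and 7.49 in females, and r with Bag3 was -0.72 (exact permutation p = 0.026, adjusted p = 0.069; rho -0.62, exact permutation p = 0.086). Without female 3 and male 4 it was -0.28, so it rested on those animals, and without male 5 it was -0.88 (adjusted p = 0.029, exact permutation). Bag3 with Hspb1 had r of 0.60 (exact permutation p = 0.093, adjusted p = 0.17). Hsp90aa1 had negative coefficients with both of its co-chaperones, -0.40 with Chordc1 (exact permutation p = 0.28) and -0.14 with Stip1 (exact permutation p = 0.74), and both were positive with no normalization between arrays. Hspa1b with Dnajb1 had r of -0.23 (exact permutation p = 0.55).

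**Figure D4:**
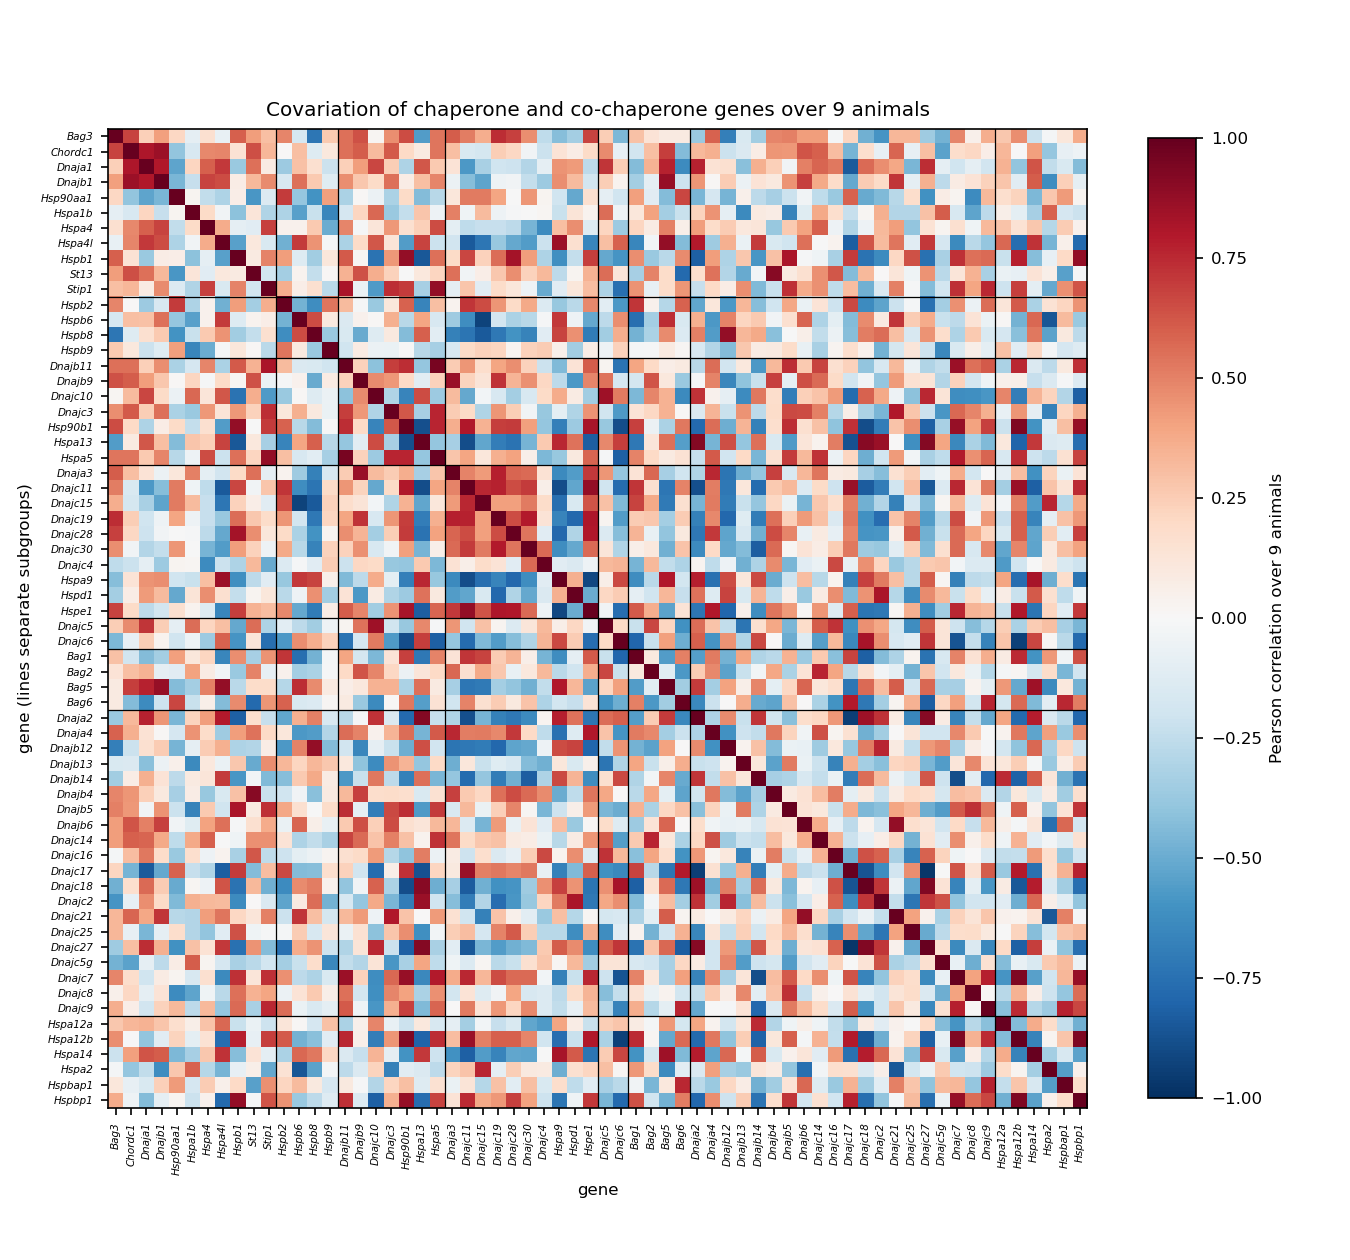
Pearson correlation over the 9 animals for every pair of the 64 genes, coloured from -1 (blue) to 1 (red), with black lines between subgroups. Red blocks within the endoplasmic reticulum and mitochondrial groups stand beside blue cells, and the mean over all pairs is 0.04.

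As a whole the 64 genes did not form 1 block. The mean pairwise r was 0.037 over all members, 0.16 in the inducible cytosolic, 0.14 in the endoplasmic reticulum and 0.13 in the mitochondrial group, against 0.00018 over all tested probes. Without female 1 it was 0.016 over all members, 0.092 in the inducible and 0.074 in the endoplasmic reticulum group. With no normalization between arrays it was 0.29 over all members, 0.45 in the inducible, 0.37 in the endoplasmic reticulum and 0.50 in the mitochondrial group. That setting leaves array brightness in every probe, and no value over all probes is given for it, so 0.00018 is not its baseline. On residuals from sex and title number means the mean r was below 0 in the inducible (-0.019) and endoplasmic reticulum (-0.080) groups. Scaling to the 75th percentile left 0.055 in the mitochondrial one. Strong coefficients of both signs were more frequent than among all probes: 6.20% of member pairs had r above 0.7, against 2.88% of all pairs, and 4.56% had r below -0.7, against 2.84%. These shares are not matched for detection: 58 of the 64 members but 13002 of the 18531 probes were detected on every array. The 5 highest coefficients were those of Hspa5 with Dnajb11 (0.95), Dnajc7 with Hspa12b (0.94), Hspa12b with Hspbp1 (0.93), Hsp90b1 with Hspa12b (0.93) and Dnajc18 with Dnajc27 (0.93). Over the 6 brighter arrays these were 0.99, 0.83, 0.84, 0.72 and 0.90. The 5 lowest were Dnajc17 with Dnajc27 (-0.97), Dnaja2 with Dnajc17 (-0.94), Dnajc6 with Hspa12b (-0.93), Dnajc15 with Hspb6 (-0.92) and Hspe1 with Hspa9 (-0.91), and over the 6 brighter arrays -0.92, -0.76, -0.96, -0.93 and -0.51. Of these 10 pairs, Hspa5 with Dnajb11 and Dnajc15 with Hspb6 hold no gene named above for the dimmest arrays, Dnajc6 with Hspa12b holds 1, and the other 7 hold such genes on both sides. The Hspa12b and Dnajc27 probes were dim, with raw intensities of 51.4 to 67.9 and 57.7 to 76.8, where array medians were 47.6 to 54.0. The 10 named genes outside the 64 most like the inducible group were Nkrf, Stard8, NMS, Pakap, Pcbp2, Wbp2, Cdc123, Ift88, Zfp444 and Pdp1, with mean r of 0.42 to 0.46 over the 9 animals.

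Members varied more between animals than the typical probe. The median SD within sex was 0.14 over the 64 genes and 0.092 over all tested probes, and 51 of the 64 lay above the median of all probes. Among probes detected on every array, whose median SD was 0.11, 40 of the 58 members so detected lay above that median, with a median of their own of 0.15. The widest was Dnajc21, a J protein of ribosome assembly: males lay at 6.88, 7.99 and 8.22 and females at 8.28, 7.98 and 8.05. Male 5 alone made its low end, and the other 8 animals lay at 7.56 to 8.28. Hspa2, an Hsp70 best known from testis, had the opposite form, at 6.89, 7.10 and 7.80 in males and 7.12, 7.08 and 7.06 in females, with male 5 the single high animal. Hspb6 (Hsp20) was lowest in male 5, at 8.79 against 9.18 to 9.36 in the other males. Hspa2 and Hspb6 were among 6 of the 64 genes in which 1 male stood far from the other males by Dixon's ratio at the 95% level, against 5.4% of all tested probes. Male 5 is the animal with low oligodendrocyte markers, of which 0 of the 6 measured were below detection; their part in its Dnajc21, Hspa2 and Hspb6 values was not tested. Dnajb14, a J protein of the endoplasmic reticulum membrane, lay at 7.12, 7.45 and 7.97 in males and 7.24, 7.50 and 7.47 in females, with the 3 dimmest arrays highest.

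Across the title numbers, 4 of 64 members were under an unadjusted p of 0.05 in an F test over the 3 numbers that allowed for sex (limma), against 9.56% of all tested probes. None passed adjustment (limma, 0% of all probes called, with 1772 under an unadjusted p of 0.05). Adjusted p reached 0.43 at the least among members and 0.29 over all probes. Bag1, a nucleotide exchange factor that links Hsp70 to the proteasome, averaged 8.49 ± 0.03, 8.41 ± 0.07 and 8.62 ± 0.05 in the lowest, middle and highest number (SD, n = 3 each; unadjusted p = 0.010, limma); its males lay at 8.41, 8.48 and 8.67 and its females at 8.51, 8.33 and 8.57. Dnajc6 (auxilin), which strips clathrin from vesicles at synapses, averaged 7.95 ± 0.14, 8.25 ± 0.12 and 7.83 ± 0.16 (unadjusted p = 0.011, limma), with males at 7.65, 8.02 and 8.29 and females at 7.82, 8.34 and 7.92. The middle number, which holds 2 of the 3 dimmest arrays (male 4 and female 2), was lowest for Bag1 and highest for Dnajc6.

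Dnajc14, known for binding dopamine receptors in the endoplasmic reticulum, averaged 7.88 ± 0.04, 7.67 ± 0.08 and 7.80 ± 0.03 in the 3 numbers (unadjusted p = 0.010, limma), with males at 7.57, 7.79 and 7.87 and females at 7.93, 7.73 and 7.83. Hspb2, a small heat shock protein of muscle, averaged 5.90 ± 0.03, 5.91 ± 0.01 and 6.05 ± 0.04 (unadjusted p = 0.023, limma), but was detected on 4 of 9 arrays; males lay at 5.87, 5.93 and 6.04 and females at 5.90, 5.91 and 6.10. Dnaja4, a cytosolic J protein, missed that p (0.051, limma), with averages of 9.32 ± 0.11, 9.10 ± 0.07 and 9.25 ± 0.09, males at 9.06, 9.22 and 9.33 and females at 9.45, 9.06 and 9.25. Dnajb9, described above, was next (unadjusted p = 0.054, limma). The count of 4 was 7 without female 1 or without male 5, 11 without male 2 and 17 without male 3, so it depended on single animals; over all probes the 1772 became 1846, 1485, 2197 and 2502 without the same animals.

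The other members are given by their ranges. The 4 small heat shock proteins outside the inducible set (Hspb2, Hspb6, Hspb8 and Hspb9) differed between the sexes by -0.06 to 0.12, and Hspb8 was the 1 with a higher male mean. The synaptic Dnajc5 (cysteine string protein), which keeps vesicle release proteins folded, lay at 6.68, 6.91 and 6.98 in males and 6.98, 7.04 and 6.94 in females, a difference of -0.12 ± 0.08 (SE). Bag1, Bag2, Bag5 and Bag6 differed by -0.11 to 0.08. The 20 remaining J proteins had 13 lower and 7 higher male means, differing by -0.30 for Dnajc21 to 0.07, and the 6 remaining Hsp genes had 4 lower and 2 higher. None of these was under an unadjusted p of 0.05 between the sexes (limma). Besides Hspa1b and Hspb2, the genes below the detection level on some arrays were Hspb9 (detected on 6 of 9) and Dnajb13, Dnajc5g and Dnajc28 (8 of 9 each).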

How the data were processed

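Cortical RNA of 9 rats was made into biotin-labelled cRNA for Illumina bead arrays, per the labels' protocols. The authors deposited 1 table per animal with a linear intensity for each of 22517 probes, and 1 joint table of log2 values for 15912 probes. Scanner, probe summary and detection calls are not given in the sources. From the values, the deposited intensities were neither normalized nor background-subtracted.

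Background correction by normexp (offset 50) was followed by log2 and quantile normalization, in limma 3.58.1 under R 4.3.3. Probes above the 25th percentile of their array on at least 3 arrays were tested (18531). The offset understates fold changes of dim probes, and the number of arrays limits the precision. Animals were grouped by labelled sex and numbered in record order. Male minus female, and an F test over title numbers with sex as a covariate, were fitted with limma over all tested probes and adjusted by Benjamini-Hochberg. The titles' shared numbers are not stated to mark a litter or day, and no pairing was assumed. Partner pairs were tested by exact two-sided permutation of the 9 animals; 25 pairs were listed and 13 had both genes measured. Correlations and figures used Python 3.11.15, scipy 1.17.1 and matplotlib 3.10.9.

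Symbols came from the platform annotation (10687 probes named, 11830 not), with 63 of 64 members updated through RefSeq gene IDs (GRCr8). Promoter sequences are RefSeq's. The members and gene lists were chosen with earlier results of these data known. Values per animal were printed for the inducible cytosolic genes, the 6 other members with the largest SD within sex, the 6 with the smallest p between sexes and the 6 across title numbers, and genes of printed pairs. Members named for the dimmest arrays or for strong correlations, the genes listed beside Hspa5, Arc, Fos, Egr1, Aif1, C1qa and Dnajc5 are outside this rule. Their values had been seen when they were picked.

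Alternatives were a floor of 64 in place of background correction, no normalization, 75th percentile scaling, other filters, the deposited log2 table, an intensity trend, title number as a block, array weights, Spearman's rho, residuals, and leaving out the 3 dimmest arrays or each animal. On simulated data, the sex fit found 32%, 68%, 96% and 100% of the 50 probes given log2 shifts of 0.25, 0.5, 1 and 2, among 18531.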

Additional observations from a re-analysis of the deposited data

Results flagged for a closer look

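The 6 genes in which 1 of the 6 males stood far from the others by Dixon's ratio were 6 of 64; the same ratio marked 5.4% of all tested probes, and chance marks about 1 in 20 groups. Male 5 was high for Hspa2, at 7.80 against 6.89 to 7.12 in the other males and 7.06 to 7.12 in females, and low for Hspb6, at 8.79 against 9.18 to 9.36 in the other males and 9.19 to 9.35 in females. Male 6 was high for Stip1, at 9.23 against 8.71 to 8.83 in the other males and 8.70 to 9.04 in females, and for Dnajc9, a histone-binding J protein, at 7.61 against 6.97 to 7.19 in the other males and 7.27 to 7.32 in females. Male 3 was high for Dnajc25, at 6.63 against 6.11 to 6.26 in the other males and 6.21 to 6.31 in females. Male 4, on a dim array, was low for Bag3, at 6.80 against 6.97 to 7.05 in the other males and 7.07 to 7.34 in females. Male 5 also had the low oligodendrocyte markers and male 3 the high choroid plexus markers given above, and their part in these values was not tested.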

How the results depend on the processing

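The count of 0 probes passing adjustment between the sexes held in all 19 alternatives, as did the direction of Chordc1, Bag3, Dnajb1, Dnaja1, Dnajb9 and St13. The 3 chaperone genes under an unadjusted p of 0.05 became 5 with title number as a replicate block and 7 without the 3 dimmest arrays, and 2 to 5 when each animal was left out. Over all probes, 439 such calls ranged between 162 and 720 over the settings, and between 288 and 720 leaving out each animal. The all-probe counts with the block and without the 3 dimmest arrays are not given here, so the 5 and 7 have no matched share. The title numbers are not known to pair animals, and the block changed no other call. Across title numbers, the 0 adjusted calls became 3 without the 3 dimmest arrays and 0 to 1 leaving out each animal (1 without male 4). The 4 chaperone genes became 17 with array weights and 7 with 75th percentile scaling, and 4 to 17 leaving out each animal. Over all probes 1772 ranged between 918 and 3006 over the settings, and between 1149 and 2502 leaving out each animal. The all-probe counts with array weights and with 75th percentile scaling are not given here, so the 17 and 7 have no matched share. The 2 partner pairs passing adjustment became 6 with no normalization, 4 with 75th percentile scaling, 1 on residuals from the sex means, 1 on residuals from sex and title number means, 1 without the 3 dimmest arrays, and 1 to 3 leaving out each animal. With Spearman's rho, Hspa5 with Dnajc3 passed beside those 2. The mean pairwise r of 0.037 became 0.048 over probes detected on all arrays, 0.057 with the floor of 64, 0.29 with no normalization, 0.058 with 75th percentile scaling, 0.012 on residuals from the sex means, -0.0036 on residuals from sex and title number means, 0.073 without the 3 dimmest arrays, and 0.016 to 0.048 leaving out each animal. Some coefficients changed sign. With no normalization these were Hsp90aa1 with Chordc1 (0.24), Hsp90aa1 with Stip1 (0.55), Hspa1b with Dnajb1 (0.045), Hspa9 with Hspd1 (-0.20) and Hspd1 with Hspe1 (0.86). With 75th percentile scaling they were Hsp90aa1 with Stip1 (0.19), Hspa9 with Hspd1 (-0.69) and Hspd1 with Hspe1 (0.58), and after renormalizing without the 3 dimmest arrays Hspa9 with Hspd1 (-0.38) and Hspd1 with Hspe1 (0.17). Hspa5 with Dnajb9 was -0.59 on residuals from sex and title number means. Leaving out each animal gave -0.57 to 0.12 for Hsp90aa1 with Stip1, -0.38 to 0.16 for Hspa1b with Dnajb1 and -0.0051 to 0.50 for Hspa5 with Dnajb9. With the floor of 64 Hspa1b was constant, so its pair had no value. The cause of these changes was not tested. Genes near background, such as Hspa1b and Hspb2, could show no difference at this signal.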

Other observations

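Among named genes outside the 64, those most like Hspe1 over the 9 animals were Dad1 (r = 0.98), a subunit of the oligosaccharyltransferase, Psmb10 (0.98), an immunoproteasome subunit, Smim29 (0.97), Polr3d (0.97), a subunit of RNA polymerase III, Ndufb3 (0.96), a subunit of respiratory complex I, and Ccdc115 (0.96). Those most like Chordc1 were Irak2 (0.95), an interleukin receptor kinase, Fam234b (0.95), Chchd3 (0.93), of the inner mitochondrial membrane scaffold, Pdp1 (0.91), Spred1 (0.90) and Fbxo30 (0.90). These genes were picked for their coefficients, and no test was made.

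Of the other folding genes listed, Vcp, a segregase of misfolded proteins, had r of -0.94 with Hspe1 and was above the other 6 on all 3 dimmest arrays. Tomm34, a co-chaperone of mitochondrial import, had r of 0.88 with Hspe1, and Sugt1, a co-chaperone of Hsp90, 0.81. Cryab, a small heat shock protein of lens and glia, had the widest spread of the members and other genes listed, with an SD within sex of 0.59, and averaged 9.74 ± 0.54 in males (SD, n = 6) and 10.19 ± 0.69 in females (SD, n = 3), a difference within the spread between animals. It was lowest in male 5, at 8.86. The sex difference was also tested for change across title numbers: 0 of 18531 probes passed adjustment in limma, 384 had an unadjusted p under 0.05, and the smallest adjusted p among members was 0.99997.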
